A study of Mus musculus with 2 samples.

Results

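Levels of 10 genes for enzymes that handle peroxide were described: the 6 peroxiredoxins Prdx1 to Prdx6, the glutathione peroxidases Gpx1 and Gpx4, catalase (Cat) and the copper-zinc superoxide dismutase Sod1. Their rows were found in the gene tables by the Ensembl identifier without its version, through the GENCODE symbol, and all 10 of 10 matched among 43346 mouse genes. The livers came from mouse embryos of strain B6NCrl, aged 11.5 embryonic days, with no treatment or genotype beyond the strain given in the labels. Replicate 1 was a pool of 109 embryos and replicate 2 a second pool of unstated size. Both pools mixed male and female embryos. Each library was made from 10 ng of RNA extracted with a mirVana kit and carried added control RNAs (spike-ins). With 1 group, no condition could be tested: levels within the tissue, transcripts and the difference between the pools could be described. In a whole organ, fewer cells of a type and less RNA per cell cannot be told apart.

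Hydrogen peroxide arises in mitochondria, the endoplasmic reticulum and peroxisomes, and from superoxide through superoxide dismutases. Peroxiredoxins reduce it with a reactive (peroxidatic) cysteine, which thioredoxin or glutathione restores, while glutathione peroxidases use glutathione, in several of them at a selenocysteine, and catalase breaks peroxide down without a reductant. In the embryonic liver, a site of blood formation, these enzymes work in hepatoblasts and in red cell precursors, whose haemoglobin and iron promote oxidation. Sod1 is the exception in the set, since it forms hydrogen peroxide and does not remove it.

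All 10 genes were abundant. Levels are given as TPM, a relative transcript level that is corrected for transcript length, as mean ± SD over the 2 libraries (n = 2). Every member passed a TPM of 1 in both libraries, a level that 56.6% of 21474 protein-coding genes reached, and 9 of 10 passed a TPM of 100 in both, against 6.19% of protein-coding genes. Prdx5 alone fell short of 100. The members were chosen with levels in these libraries known, so these counts describe the set only. Together the 10 genes held 7543 and 8099 TPM in replicates 1 and 2, which was 0.883% and 0.911% of the TPM of all mouse genes.

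Prdx2, a cytosolic peroxiredoxin that is among the most abundant proteins of red cells, was the highest of its family (ENSMUSG00000005161.11, GRCm38 chr8:84969587-84974834, plus strand). It stood at 1064.77 and 1115.89 TPM in replicates 1 and 2 (1090 ± 36.1). Its rank among protein-coding genes was 86 and 80 in replicates 1 and 2. Prdx1, also a cytosolic member (ENSMUSG00000028691.8, chr4:116685544-116700822, plus strand), had 875.14 and 1002.75 TPM (939 ± 90.2) and ranks 111 and 99. Prdx2 was above Prdx1 in each library, by 1.16-fold on average, when all transcripts of each gene were summed. On transcripts of the protein-coding class alone, a choice made after seeing the data, Prdx1 had the higher value in each library. By the rule for ordered pairs given below, Prdx1 and Prdx2 were then not ordered. Prdx2 then had 839.19 and 926.14 TPM (883 ± 61.5) and Prdx1 865.85 and 995.29 TPM (931 ± 91.5).

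Prdx3, the mitochondrial member (ENSMUSG00000024997.7, chr19:60864051-60874556, minus strand), had 283.60 and 327.20 TPM (305 ± 30.8). Prdx4 works in the endoplasmic reticulum (ENSMUSG00000025289.11, chrX:155323918-155340754, minus strand) and had 143.49 and 163.97 TPM (154 ± 14.5). Prdx3 and Prdx4 thus lay below Prdx1 and Prdx2 in each library, and Prdx3 was 1.99-fold above Prdx4.

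Prdx1 to Prdx4 are the typical 2-Cys peroxiredoxins, in which the cysteine that meets the peroxide sits in a conserved stretch. That stretch is shown because it holds the residue that defines the family's chemistry. The 39 bases around the codon were read from the GENCODE M21 transcripts on GRCm38, 5′ to 3′ along the coding strand, with the cysteine codon in capitals. The codons lie at chr4:116691823-116691825 (plus strand, codon 52), chr8:84970483-84970485 (plus, codon 51), chr19:60870127-60870129 (minus, codon 109) and chrX:155332460-155332462 (minus, codon 127), in coding exons.
Prdx1: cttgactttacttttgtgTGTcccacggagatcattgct
Prdx2: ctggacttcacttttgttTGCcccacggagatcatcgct
Prdx3: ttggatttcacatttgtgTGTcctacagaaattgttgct
Prdx4: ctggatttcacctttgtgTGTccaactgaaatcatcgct
Across these 39 bases Prdx1 and Prdx2 differed at 5 positions, the fewest of the 6 pairs, and Prdx2 and Prdx3 at 11, the most. Prdx2 carried the codon TGC and the other 3 TGT. Over the aligned coding sequence, identity ran from 58.4% between Prdx1 and Prdx5 to 74.1% between Prdx2 and Prdx4. The longest run of identical bases in any pair of peroxiredoxin mRNAs was 23 bases, in Prdx2 and Prdx4, and the gap between the deposited full and effective transcript length was 99 bases in transcripts of each member, which is longer than that run.

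Prdx6, the 1-Cys member, which is restored by glutathione and also cleaves phospholipids (ENSMUSG00000026701.11, chr1:161240112-161251219, minus strand), had 562.02 TPM in replicate 1 and 658.34 TPM in replicate 2 (610 ± 68.1). Prdx5, an atypical member found in mitochondria, peroxisomes and cytosol (ENSMUSG00000024953.12, chr19:6906697-6910106, minus strand), was the lowest of the 10 genes with 84.84 and 81.00 TPM (82.9 ± 2.72). It still ranked 1588 and 1826 among protein-coding genes in replicates 1 and 2. Prdx5 and Sod1 were the members whose deposited credibility intervals overlapped between the libraries. The share of all genes with overlapping intervals was not computed. On deposited TPM the median log2 ratio of replicate 1 to replicate 2 over 16586 genes was -0.08.

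The 6 peroxiredoxins summed to 3014 and 3349 TPM. Prdx2 made up 34.3% ± 1.42 of that sum (SD, n = 2), Prdx1 29.5% ± 0.639 and Prdx6 19.2% ± 0.714. Prdx3 held 9.59% ± 0.254, Prdx4 4.83% ± 0.0954 and Prdx5 2.62% ± 0.280. Prdx2 and Prdx1 together thus carried most of the family's transcripts in each library. These shares depend on the length each gene is divided by. With the length of the leading transcript that has a CCDS coding sequence (a curated reading frame) in place of the deposited average length, a choice made after seeing the data, Prdx1 was 433 ± 32.9 TPM and Prdx6 304 ± 31.8 TPM. The deposited values are 2.17 and 2.01 times as high. Prdx2 then made up 45.7% of the family, Prdx1 18.6%, Prdx6 13.1% and Prdx3 13.1%. On the protein-coding class alone Prdx1 made up 37.9%, ahead of Prdx2, with Prdx3 at 12.4% and Prdx6 at 4.02%. The level of Prdx6 was then 98.7 ± 12.0 TPM.

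Gpx1, the selenoenzyme that reduces hydrogen peroxide in cytosol and mitochondria, was the most abundant of the 10 genes (ENSMUSG00000063856.7, chr9:108338903-108340343, plus strand). It had 2302.62 TPM in replicate 1 and 2475.46 TPM in replicate 2 (2389 ± 122), from 46237 and 43067 estimated counts. Its rank among protein-coding genes was 20 in replicate 1 and 21 in replicate 2. The protein-coding gene next above it by mean TPM was Ldha, a lactate dehydrogenase chain, at 2875 ± 267 TPM. The gene next below was Eif5a, a translation factor, at 2383 ± 142 TPM, which was above Gpx1 in replicate 2 and below it in replicate 1.

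Gpx4, which reduces lipid peroxides in membranes and protects cells from ferroptosis (ENSMUSG00000075706.6, chr10:80047166-80056439, plus strand), had 604.76 and 635.69 TPM (620 ± 21.9). Gpx1 and Gpx4 held 76.4% ± 0.384 and 19.8% ± 0.216 of the summed TPM of the 8 glutathione peroxidase genes. The 8 summed to 3024 and 3228 TPM in replicates 1 and 2, and the 6 peroxiredoxins to 3014 and 3349 TPM.

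Both proteins contain selenocysteine, which is written in the mRNA as TGA, elsewhere a stop codon. The 39 bases around that codon are shown because the reading of this codon decides whether a transcript encodes the active enzyme. They come from the GENCODE M21 transcripts on GRCm38, with the selenocysteine codon in capitals, at chr9:108339451-108339453 (plus strand, codon 47 of Gpx1-201) and chr10:80054737-80054739 (plus strand, codon 73 of Gpx4-202), in coding exons.
Gpx1: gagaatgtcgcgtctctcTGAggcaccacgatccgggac
Gpx4: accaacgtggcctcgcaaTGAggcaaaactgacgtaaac
The windows differed at 18 of 39 positions. Transcripts in which this codon is annotated as selenocysteine carried 52.98% and 51.72% of Gpx1 TPM in replicates 1 and 2. For Gpx1 this was Gpx1-201 alone, which carried 66.3% and 65.2% of the estimated counts. For Gpx4 they carried 99.53% and 99.40%. The other main Gpx1 transcript, Gpx1-204, also contains the TGA in its exons, but without an annotated selenocysteine. The place of the TGA relative to its reading frame was not examined.

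Catalase (ENSMUSG00000027187.6, chr2:103453849-103485160, minus strand), the peroxisomal enzyme that turns peroxide into water and oxygen, had 110.96 TPM in replicate 1 and 133.80 TPM in replicate 2 (122 ± 16.2). It was the second lowest of the set, below Prdx4 by 1.26-fold and above Prdx5 by 1.47-fold. On estimated counts, which are not corrected for length, Cat lay above Prdx4, with 7202 against 3302 counts in replicate 1 and 7578 against 3293 in replicate 2. Cat-201 was the longest main transcript, at 2613 bases.

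Sod1 (ENSMUSG00000022982.9, chr16:90220754-90226329, plus strand) was second to Gpx1, with 1510.34 and 1504.62 TPM (1507 ± 4.04). On deposited TPM its 2 libraries were the closest of all members, but on scaled counts those of Gpx1, Gpx4, Prdx2 and Prdx1 were closer. Sod1 lay between the tubulin gene Tuba1b (1512 ± 146 TPM) and the histone gene H3f3a (1498 ± 111 TPM) by mean level, and Prdx2 between the ribosomal protein genes Rps16 (1092 ± 40.9 TPM) and Rps27rt (1068 ± 2.47 TPM). Each of these gaps was smaller than the spread between the libraries of at least one gene of the pair.

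**Figure D1:**
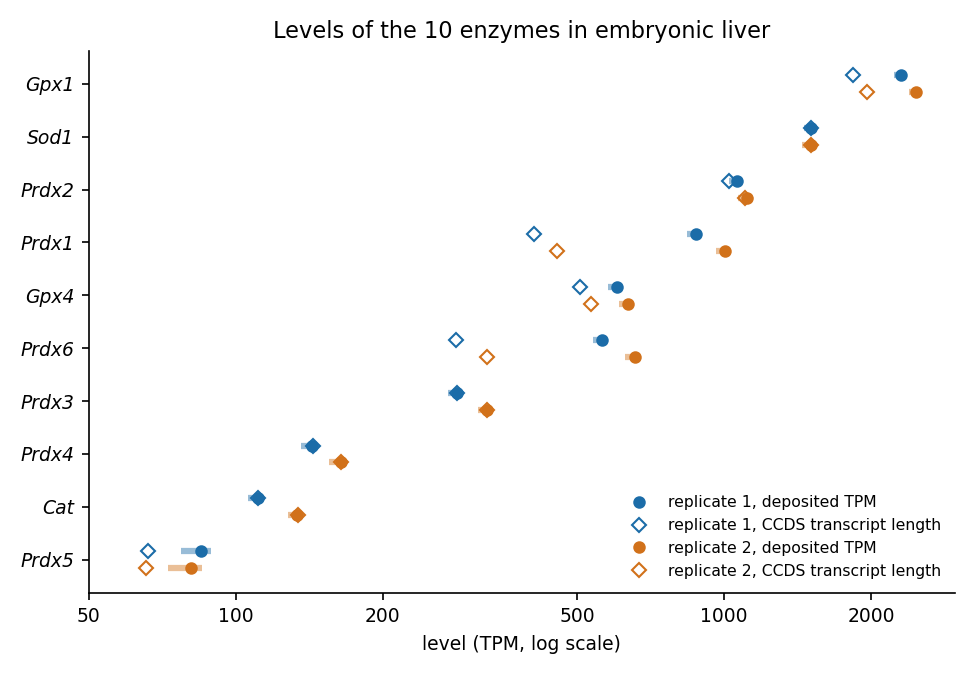
Level of each enzyme in TPM (log axis), by library: filled circles are the deposited values, bars their deposited credibility intervals (below the circle in most members), and open diamonds the values recomputed with the length of the leading CCDS transcript. Filled circles run from 81.00 TPM (Prdx5) to 2475.46 TPM (Gpx1), and the diamonds lie far from them for Prdx1 and Prdx6.

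On deposited TPM the order of the members was nearly the same in the 2 pools. Members of a pair were taken as ordered if replicates 1 and 2 ranked them alike, with credibility intervals apart in each, and if their average log2 ratio was larger than the gap between its 2 values. By this rule 44 of 45 pairs and 8 of 9 neighbouring pairs were ordered. From the top, Gpx1 was 1.58-fold above Sod1, Sod1 1.38-fold above Prdx2 and Prdx1 1.51-fold above Gpx4. Prdx6 was 2.00-fold above Prdx3. The exception was Gpx4 and Prdx6, whose log2 ratio was 0.11 in replicate 1 and -0.05 in replicate 2 (0.03 ± 0.11), so their order differed between the pools. With the CCDS transcript length, 2 pairs changed places: Gpx4 came above Prdx1, and Prdx3 (305 ± 30.8 TPM) came level with Prdx6 (304 ± 31.8 TPM), with their order by mean reversed. On the protein-coding class alone 43 of 45 pairs were ordered and 4 changed places: Prdx1 came above Prdx2, and Prdx6 fell below Prdx3, Prdx4 and Cat. The pairs not ordered by the rule were Prdx1 with Prdx2, whose intervals were not apart in replicate 1, and Prdx6 with Prdx5. On estimated counts 4 pairs changed places, with Prdx2 and Prdx1 above Sod1, Prdx6 above Gpx4 and Cat above Prdx4.

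The members differed in how their expression was divided among annotated transcripts. Reads that fit several transcripts were shared out by a model, so these shares are estimates. Sod1 and Prdx3 had 1 transcript in the tables. Cat-201 carried 100% of Cat in both libraries, and Prdx4-201 carried 98.97% and 98.58% of Prdx4. The 8 members with several transcripts had the same main transcript in both libraries, which also held for 94.0% of 5881 protein-coding genes with several transcripts and a mean TPM of 10 or more.

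Prdx6 stood apart in the class of its transcripts. Its main transcript, Prdx6-208, is annotated as a target of nonsense-mediated decay, the pathway that degrades mRNAs with an early stop codon, and it carried 51.14% and 49.18% of Prdx6 TPM. Prdx6-204, a processed transcript without a reading frame, carried 26.45% and 28.33%. Protein-coding transcripts carried 16.06% and 16.28%, mostly Prdx6-202, the CCDS form of 2387 bases. Prdx6 was the 1 of 10 members whose main transcript was not of the protein-coding class, against 5.70% of 7740 protein-coding genes at a mean TPM of 10 or more. All 1294 bases of Prdx6-208 lie within the exons of Prdx6-202. The longer form has 1093 further bases, of which 33 are at the 5′ end, 157 inside and 903 at the 3′ end. No base of the exons is found in Prdx6-208 alone. Of its 3 introns, 2 are shared with Prdx6-202, so a splice junction also separates the forms. The split between these forms is an estimate from largely overlapping sequence. By estimated counts Prdx6-202 carried 24.7% in replicate 1 and 25.8% in replicate 2.

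Prdx2 had the other large share outside the protein-coding class. Its retained-intron transcripts, in which an intron has stayed in the RNA, carried 21.19% in replicate 1 and 17.00% in replicate 2, with Prdx2-205 at 16.76% and 12.77%. Prdx2-208 was its main transcript at 54.16% and 56.73%. Prdx2 and Prdx6 were the 2 of 10 members with 10% or more on other classes, against 31.2% of the same 7740 genes, so the members' share was not above the background. By estimated counts the Prdx2 share was 11.0% in replicate 1 and 8.86% in replicate 2 (9.94% ± 1.53). On that measure Prdx6 was the 1 member at 10% or more, against 21.2% of those genes.

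Gpx1, Gpx4, Prdx1 and Prdx5 were divided mainly among protein-coding forms, some without a CCDS. Gpx1-201, the CCDS form, carried 52.98% and 51.72%, and the 653-base Gpx1-204, which lies wholly within its exons, 45.88% and 47.28%. By estimated counts Gpx1-201 carried 66.3% and 65.2% and Gpx1-204 32.7% and 33.9%, so this split depends on the measure. Gpx4-207, which has no CCDS, carried 60.82% and 61.05%, ahead of the CCDS form Gpx4-202 at 38.51% and 37.98%. Gpx4-201, which has the longest reading frame of the Gpx4 transcripts, carried 0.20% and 0.37%.

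In Prdx1 the short form Prdx1-201 (636 bases, no CCDS) carried 58.60% and 62.16% of TPM and the CCDS form Prdx1-204 (2294 bases) 28.04% and 26.90%. By estimated counts the order was the opposite, with Prdx1-204 at 59.9% and 59.2%. Prdx1-204 has 1636 more bases at its 3′ end than Prdx1-201, so dividing by the longer length lowers the level of Prdx1 by construction. In Prdx5, Prdx5-201 carried 54.65% and 60.81%, Prdx5-203 30.76% and 28.52%, and Prdx5-204 13.92% and 10.29%.

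**Figure D2:**
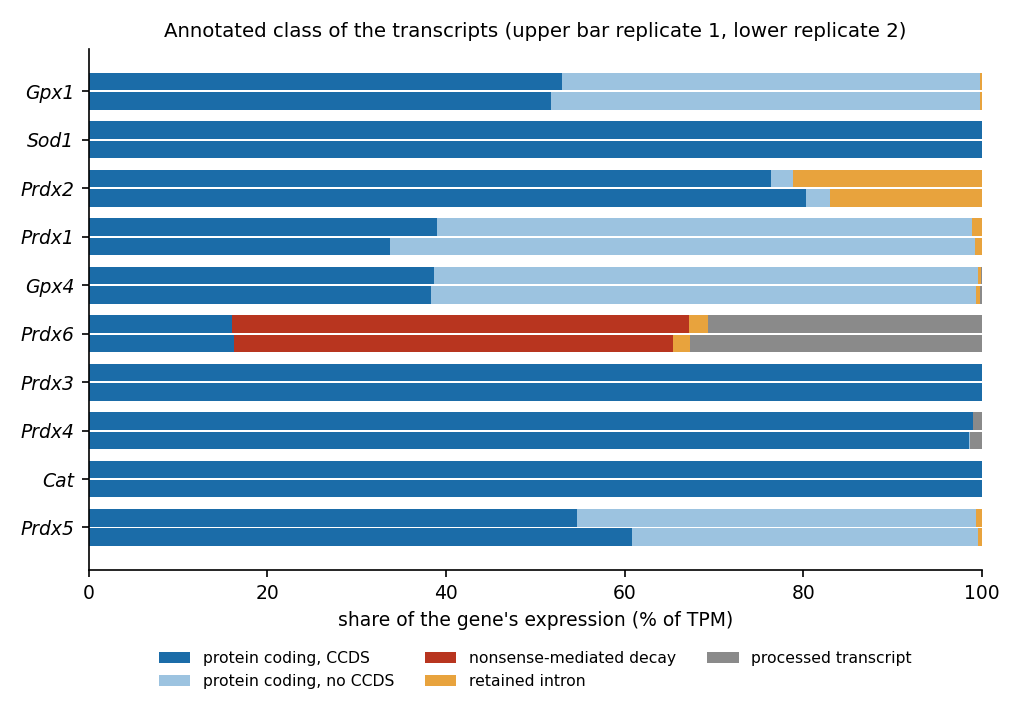
Share of each gene's TPM (percent, axis from 0 to 100) by annotated class of transcript, with replicate 1 as the upper and replicate 2 as the lower bar. Sod1, Prdx3 and Cat lie wholly on CCDS transcripts, and in Prdx6 the protein-coding class holds 16.06% and 16.28%.

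Those pseudogene copies of the members that were counted took few reads. Of the processed pseudogenes that match a member, those averaging at least 10 counts were Gm7204 and Gm21399 for Prdx1, Tdpx-ps1 for Prdx2 and Gm8566 for Sod1. Gm8566 matched Sod1 at 97.8% identity and had 98.68 and 70.66 counts in replicates 1 and 2, against 21329 and 18541 for Sod1. Gm7204 had 31.35 and 33.72 counts, Gm21399 7.76 and 14.01, and Tdpx-ps1 70.96 and 57.56. Gpx4-ps2 and AC122253.3, which match Gpx4 at 99.7% and 95.1% identity, and Gm8238, which matches Sod1 at 88.2%, were not used here. The level of Gpx4 is uncertain to the extent that reads were shared with its copies. On the opposite strand, Trmt112 overlaps Prdx5 by 409 bases and had 128.78 and 134.09 TPM, more than Prdx5 itself. Rnaseh2a and Junb overlap Prdx2 by 181 and 351 bases, and Scaf4 overlaps Sod1 by 650 bases. The sources used here do not say whether the counting used strand, so reads in these overlaps cannot be told apart.

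The 2 pools differed little in these genes. Estimated counts were scaled by TMM factors, and log2 ratios of replicate 1 to replicate 2 carry 95% exact binomial intervals, which cover counting error only. The ratios ran from -0.19 for Cat to 0.09 for Sod1 and Prdx5, with a median of -0.05. The central 95% of 11522 protein-coding genes that averaged at least 100 counts spanned -0.35 to 0.41, and all 10 members lay within it. None of the 10 members was 2-fold apart, against 4.40% of 16607 genes that averaged at least 10 counts (2.94% higher in replicate 1 and 1.46% higher in replicate 2).

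Cat was the furthest apart, with a log2 ratio of -0.19 (interval -0.23 to -0.14), from 6927 scaled counts in replicate 1 and 7879 in replicate 2. Prdx6 was at -0.13 (-0.16 to -0.10), Prdx3 at -0.12 (-0.16 to -0.08) and Prdx4 at -0.11 (-0.18 to -0.04), all higher in replicate 2. Sod1 was higher in replicate 1, at 0.09 (0.06 to 0.12). Prdx1 was at -0.07 (-0.10 to -0.04). Gpx1, Gpx4 and Prdx5 had intervals that included 0, and that of Prdx2, at -0.02, excluded it narrowly. The interval excluded 0 for 7 of 10 members, against 38.9% of the 16607 genes (17.8% higher in replicate 1 and 21.1% in replicate 2) and 54.5% of 6261 protein-coding genes that averaged at least 1000 counts.

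The direction of single members depended on the scale. With TMM factors 3 members were higher in replicate 1 (Sod1, Gpx4 and Prdx5) and 7 in replicate 2. On that scale 8387 of the 16607 genes were higher in replicate 2, and 6284 of the 11522 protein-coding genes. For the other scales these shares were not computed. On TPM, where the median of all genes was -0.08, Gpx4 changed sides and 8 were higher in replicate 2. With spike-in counts as the scale, the median of all genes was -0.49 and all 10 members were higher in replicate 2, with a median of -0.54. Length moved with the ratio as well: protein-coding genes under 1000 bases of effective length had a median of 0.07 and their 5 members 0.01. Genes of 1000 to 2000 bases had a median of -0.01 and their 4 members -0.10. Cat, the 1 member of 2000 bases or more, was at -0.19, where 7255 genes had a median of -0.04.

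**Figure D3:**
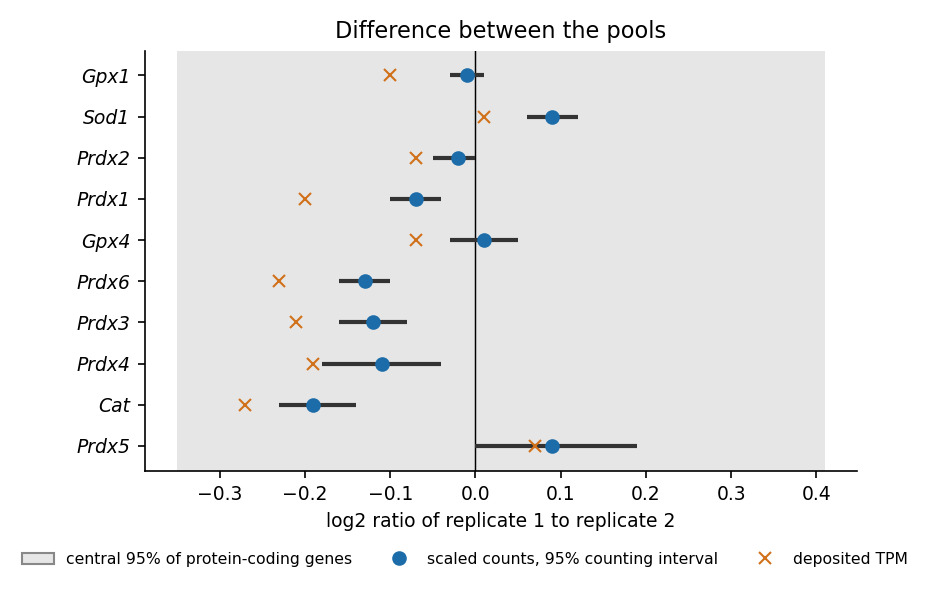
Log2 ratio of replicate 1 to replicate 2 for each enzyme: circles are TMM-scaled counts with 95% counting intervals, crosses the deposited TPM, and the grey band the central 95% of protein-coding genes (-0.35 to 0.41). Every circle lies inside the band, and Cat, at -0.19, is furthest from 0.

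Markers of the cell types in the organ are given beside these ratios. All 6 hepatoblast markers and all 6 markers of red cell precursors reached a TPM of 1 in both libraries, with medians of 1190 ± 7.77 and 170 ± 24.2 TPM. Of the red cell markers, 5 of 6 were higher in replicate 2 (log2 ratios -0.24 to 0.03). Of the hepatoblast markers, 4 of 6 were (-0.17 to 0.10). Among protein-coding genes that averaged at least 100 counts, 6284 of 11522 were higher in replicate 2. The ratios of both marker lists lay within the central 95% of those genes (-0.35 to 0.41). Heart muscle markers reached a TPM of 1 in 5 of 6 cases and were higher in replicate 1 in 6 of 6, with log2 ratios of 1.10 to 2.19 and summed levels of 265 and 115 TPM in replicates 1 and 2. Macrophage markers were detected in 4 of 4 cases (summed 213 and 224 TPM), endothelial markers in 4 of 4 (225 and 214 TPM) and mesenchymal markers in 3 of 4 (469 and 453 TPM). The part of these cell types in the members' levels and ratios was not tested.

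Most of the listed partner genes were detected, from those that restore the peroxidases to related enzymes, regulators and sources of peroxide. Of 56 such genes, 49 reached a TPM of 1 in both libraries, against 56.6% of protein-coding genes. The same share stands beside the counts for each list below. The median protein-coding gene had 2.82 and 2.87 TPM in replicates 1 and 2. The thioredoxin and sulfiredoxin cycle restores most peroxiredoxins, and its list also held the sestrin genes and Txnip. In this list 10 of 10 genes were detected, 6 of them at a TPM of 10 or more, and the median was 26.2 ± 2.53 TPM. Mitochondrial Txn2 led with 298.04 and 303.33 TPM, and cytosolic Txn1 followed with 290.90 and 295.75 TPM. Both lay within the range of the members, near Prdx3.

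In glutathione supply and the glutaredoxins, 8 of 9 genes were detected and the median was 59.6 ± 6.02 TPM. Glrx5, a mitochondrial glutaredoxin of iron-sulphur cluster assembly, had 541.75 and 568.45 TPM, and Gclm, the modifier subunit of the enzyme that starts glutathione synthesis, 190.05 and 222.24 TPM. Slc7a11, the cystine importer that feeds this synthesis, was the gene under a TPM of 1, with 0.49 and 0.40 TPM from 80 and 52 counts. All 6 genes of NADPH supply, the reducing power behind both cycles, were detected (median 49.5 ± 4.08 TPM). They were led by the isocitrate dehydrogenases Idh2, in mitochondria (197.67 and 216.32 TPM), and Idh1, in cytosol (80.56 and 94.70 TPM).

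Selenoprotein synthesis, which Gpx1 and Gpx4 require, was detected in 5 of 5 genes, with a median of 25.1 ± 1.99 TPM. Sephs2, which makes the selenium donor and is itself a selenoprotein, had 119.98 and 149.16 TPM. Pstk, a kinase that prepares the selenocysteine tRNA, had 40.51 and 40.64 TPM.

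Of the other 6 glutathione peroxidases, 3 were detected. Gpx3, the secreted form, had 68.37 and 67.58 TPM, and Gpx8, of the endoplasmic reticulum membrane, 31.43 and 31.75 TPM. Gpx2, the form of the gut lining, had 0.10 and 0.05 TPM and Gpx6 0.03 and 0 TPM. No count fell on Gpx5 (0 in each library), so levels of up to 0.0748 and 0.0858 TPM could have been missed. Selenium-dependent Gpx1 and Gpx4 thus made up nearly the whole of this family's transcripts.

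All 3 genes of the other superoxide dismutases and the copper chaperone were detected (median 32.5 ± 1.29 TPM). Sod2, the mitochondrial enzyme, had 52.44 and 59.47 TPM, far below Sod1. Ccs, which loads copper into Sod1, had 31.58 and 33.41 TPM.

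The NRF2 pathway, which induces many antioxidant genes, was detected in 5 of 5 genes (median 34.7 ± 1.96 TPM), led by haem oxygenase Hmox1 (60.44 and 75.19 TPM) and by Nfe2l2, which encodes NRF2 (53.14 and 62.34 TPM). Peroxisome import, which brings catalase to its organelle, was detected in 4 of 4 genes (median 26.3 ± 1.10 TPM), with the docking protein Pex14 at 35.71 and 36.34 TPM and the receptor Pex5 at 30.23 and 33.18 TPM.

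Producers of peroxide and superoxide formed the list with the lowest median, 2.20 ± 0.297 TPM, and 5 of its 8 genes were detected. Cyba, a subunit shared by several NADPH oxidases, had 158.64 and 156.61 TPM, and Ero1l, an oxidase that forms peroxide during protein folding, 47.16 and 56.10 TPM. The oxidase Nox4 had 0.95 and 0.65 TPM, from 81 and 45 counts, and xanthine dehydrogenase Xdh 0 and 0.08 TPM. For Duox2 each library had 0 counts, so levels of up to 0.0332 and 0.0381 TPM could have been missed.

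**Figure D4:**
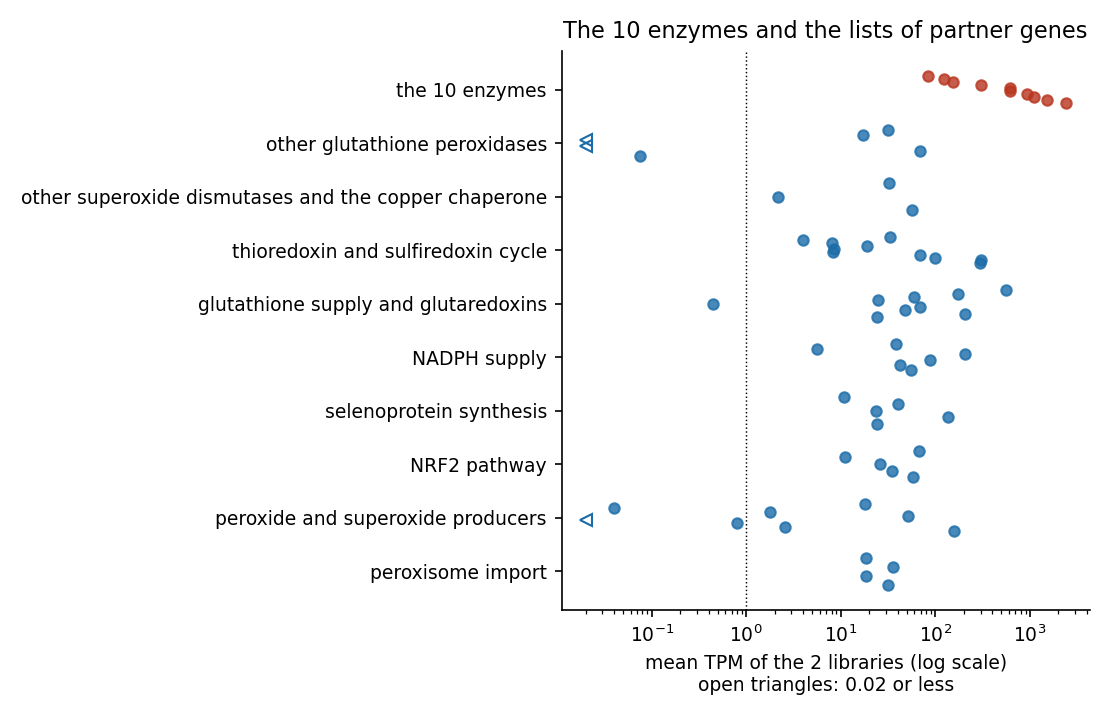
Mean TPM of the 2 libraries (log axis) for the 10 enzymes and for each partner gene, by list, with a dotted line at a TPM of 1. Open triangles are genes at 0.02 TPM or less. The enzymes lie between 82.9 and 2389 TPM, and 7 partner genes lie left of the line.

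Promoter windows around the annotated start were available for 9 of 10 members, in 12 windows, from RefSeq on GRCm38.p6. The letters TGACNNNGC, the core of the element that NRF2 binds, were searched on both strands and found in 2 of the 12 windows, 1 of Prdx1 and 1 of Sod1. Of 32851 promoter windows of the same length, 12.4% hold them. Both matches are shown because these are the members that hold the letters, with the match in capitals, read 5′ to 3′ on the minus strand, at GRCm38.p6 chr4:116685466-116685474 and chr16:90220706-90220714, opposite to the genes.
Prdx1: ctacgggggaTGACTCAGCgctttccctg
Sod1: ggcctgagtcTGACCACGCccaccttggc
The Prdx1 match also contains TGACTCA, letters that AP-1 factors bind. The letters AGATAA, a form of the GATA motif, were found on either strand in 0 of the 12 windows, against 11.2% of all windows. The 2 motifs were searched separately and do not contain each other. These matches describe letters in these windows and no binding was measured.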

How the data were processed

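Per the labels' protocols, total RNA from 2 pools of embryonic livers was sequenced with spike-ins. Per the labels, reads were assigned on mm10, and deposited notes name GENCODE M4; aligner and quantifier: not given in the sources used here. Estimated counts as deposited need not be whole. The authors also deposited TPM over all features (spike-ins held 14.6% and 11.1% in replicates 1 and 2), and the percent of a gene on each transcript. Credibility intervals of TPM were deposited too, per the file headers, at an unstated level, beside posterior means. The deposited TPM lies above its own interval in 6 of 10 members in replicate 1 and 8 of 10 in replicate 2; the intervals lie around the posterior mean. Libraries held 34344230 and 31477397 estimated counts, and both belong to 1 group, so the spread between pools may be partly technical.

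Symbols, coordinates and transcript classes came from GENCODE M21 on GRCm38. Estimated counts were scaled with TMM (edgeR 4.0.16, pseudocount 0.5) or DESeq2 1.42.0 size factors, after rounding to whole numbers for DESeq2 and the exact binomial intervals. Copies were found with blastn 2.17.0 at 85% identity or more over at least 100 bases. The TMM and interval steps were run on simulated counts that held counting error alone, so that run does not cover the spread between pools. Intervals and the limit that a count of 0 allows (3 counts) cover counting error only, since reads are not independent molecules. Members, gene lists, markers and motifs were chosen with earlier results of these data known. Named were all members, the 2 genes of each list at the top by mean TPM and those under a TPM of 1 in both libraries, copies with a mean of 10 or more counts, and the level neighbours of the 3 highest members. Python 3.11.15, scipy 1.17.1 and Biopython 1.88 did the other calculations. FPKM columns were not used.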

Additional observations from a re-analysis of the deposited data

How the results depend on the processing

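Both libraries belong to 1 group of 2 pools, so no setting could test a condition, and no paired analysis was possible because there is 1 group. Detection gave 10 of 10 members at a TPM of 10 and 9 at 100, and 0 members were 2-fold apart under each of 5 scalings. The number was also 0 at pseudocounts of 0.1 and 5. Every member had 1719 or more counts in each library, so neither these pseudocounts nor the filter on low counts could change it. With TPM of mouse genes alone every member's level rose by more than its SD, since spike-ins left the denominator. Leaving out 1 library at a time gave 44 to 45 ordered pairs, 8 to 9 ordered neighbours, 10 detected members and 49 detected partner genes. A single library drops the conditions that compare the 2 libraries. The counts of ordered pairs and of detected genes therefore could not fall, and they test nothing. Of the partner genes, 51 passed a TPM of 0.1 and 39 a TPM of 10. The shares of all protein-coding genes that did so in both libraries were not computed. Main transcripts were the same under posterior mean percents in 8 of 8 members, and in 7 of 8 by estimated counts, where Prdx1 changed. By estimated counts 1 member, not 2, had 10% or more outside the protein-coding class, since Prdx2 fell just below. The CCDS length, the share of counts and the protein-coding class alone were chosen after seeing the data. With the class alone the level of Prdx6 fell from 610 to 98.7 TPM and that of Prdx2 from 1090 to 883 TPM. With the CCDS length the levels of Prdx1 and Prdx6 moved by over 1.5 times, those of Gpx1, Gpx4 and Prdx5 by less.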

Other observations

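Some partner genes were named after their values were seen. Nnt, a mitochondrial enzyme that regenerates NADPH and carries a deletion in the C57BL/6J substrain, had 33.73 TPM in replicate 1 and 43.16 TPM in replicate 2 in these B6NCrl embryos. Of the reductases that restore thioredoxin, Txnrd1, in cytosol, had 98.4 ± 12.7 TPM (SD, n = 2), Txnrd2, in mitochondria, 69.2 ± 7.03 TPM and Txnrd3 8.34 ± 1.00 TPM. Gsr, the glutathione reductase, had 68.7 ± 7.30 TPM. Srxn1, which repairs overoxidised peroxiredoxins, had 8.45 ± 1.69 TPM, far below the peroxiredoxins it acts on. Prdx6b, a protein-coding gene whose transcript matches Prdx6 at 90.1% identity, had 1 count in replicate 1 and 0 in replicate 2.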
